A study of Mus musculus with 2 samples.

Results

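The genes described here handle zinc, copper and manganese in hepatocytes. They are the metallothioneins Mt1 and Mt2, the zinc sensor Mtf1, the exporters Slc30a1 and Slc30a10, the importers Slc39a14, Slc39a8 and Slc39a4, the copper pump Atp7b and ceruloplasmin, Cp. The 10 genes were matched by symbol among the 43280 gene symbols with deposited read counts, and all 10 were found. They were chosen by their reads in small hepatocytes (SHs) against mature hepatocytes (MHs) and by their shared function, so the ratios between SHs and MHs given below are a description and support nothing by themselves.

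MHs and SHs were freshly isolated by collagenase perfusion from the livers of the same C57BL6 mice, with no transgene or treatment in either group, to learn how the hepatocytes differ. The labels give an age of 20 weeks, above the range that the methods give for the mice of the study, and the methods name 3 mice without saying whether their cells were pooled. MHs came from the low-speed pellet, were cleared of dead cells in Percoll and were not sorted, whereas SHs came from the supernatant and were sorted as CD31- CD45- EpCAM- ICAM-1+ cells. Poly(A) RNA was sequenced on an Ion Proton from 1 library of each group, with 16979136 reads counted on genes in MHs and 42356444 in SHs.

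With 1 library per group, no test between SHs and MHs was possible. Levels are given as reads, as reads per 1000000 counted reads (RPM), or, where genes are compared with each other, as reads per kilobase of the principal transcript per 1000000 counted reads (RPKM). The 95% intervals are exact and cover counting error only, since reads were counted without molecular identifiers. They hold neither the spread between mice nor that between isolations. In bulk samples such as these, fewer cells of a type and less RNA per cell cannot be told apart.

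Both libraries carried the RNA of hepatocytes. The 10 hepatocyte markers, led by Alb, summed to 90401 RPM in MHs and 92984 RPM in SHs, with log2 ratios of SHs over MHs from -0.25 for Apob to 0.13 for Alb. RNA of other liver cells was lower in the sorted library. The endothelial markers summed to 90.8 RPM in MHs and 4.65 RPM in SHs, with Lyve1 at 0 in SHs. All 10 of 10 were lower there by their intervals, against 15.5% of all genes with at least 10 reads. The macrophage and leukocyte markers summed to 18.3 and 1.04 RPM, with Marco at 0 in SHs. Of the 9 with at least 10 reads, 8 were lower, and Cd68 (7 against 15 reads) had an interval that includes 0. The stellate cell markers summed to 20.97 and 2.36 RPM, with none at 0. All 8 of them with at least 10 reads were lower. By contrast, 6 cholangiocyte markers summed to 13.96 RPM in MHs and 14.1 RPM in SHs, a log2 ratio of 0.02 (-0.20 to 0.24). Of the 2 with at least 10 reads, Sox9 (92 against 325 reads) was higher in SHs by its interval and Spp1 (136 against 271) lower. Nearly all reads of the sum fell on these 2 genes. Krt19 and Krt7 had 1 read in each library, and Cftr was at 0 in SHs. The part of these cell types in the results below was not tested. Of the genes behind the sort, Pecam1 (CD31) had 73 reads in MHs against 8 in SHs, Ptprc (CD45) 9 and 5, and Epcam 6 and 1. Icam1 had 130 reads in MHs against 276 in SHs, a log2 ratio of -0.24 (-0.54 to 0.08), with an interval that includes 0.

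Metallothioneins are small proteins rich in cysteine that hold zinc and copper and buffer their free levels in the cell. In hepatocytes their genes are switched on by MTF-1, a transcription factor that senses zinc and binds short DNA stretches called metal response elements, and they also respond to glucocorticoids and inflammation. Proteins of the Slc39 (ZIP) family carry metals into the cytosol and those of the Slc30 (ZnT) family carry them out, and the liver disposes of excess copper and manganese in the bile.

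The metallothioneins Mt1 and Mt2 had the highest ratios of the 10 genes, and both were higher in the SH library. Mt1 had 250 reads in MHs against 1462 in SHs, or 14.7 RPM (12.96 to 16.7) and 34.5 RPM (32.8 to 36.3). Mt2 had 16 reads in MHs against 296 in SHs, or 0.942 RPM (0.539 to 1.53) and 6.99 RPM (6.21 to 7.83). For each gene the counting intervals of MHs and SHs lay apart. The ratio of SHs over MHs was 2.34-fold for Mt1 (2.05 to 2.69) and 7.42-fold for Mt2 (4.49 to 13.1). On the log2 scale these are 1.23 (1.03 to 1.43) and 2.85 (2.17 to 3.72), and the wide interval of Mt2 rests on its 16 reads in MHs.

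Mt2 was the minor metallothionein in both libraries, but less so in SHs. Of the 266 reads on Mt1 and Mt2 together in MHs, Mt2 held 6.02% (3.48 to 9.58), and of the 1758 reads in SHs it held 16.8% (15.1 to 18.7). Per length, Mt1 stood at 26.8 RPKM and Mt2 at 1.84 RPKM in MHs, and at 62.9 and 13.7 RPKM in SHs. Both genes together gave 15.7 RPM (13.8 to 17.7) in MHs and 41.5 RPM (39.6 to 43.5) in SHs, which is 2.65-fold. The other metallothionein genes of the mouse, Mt3 and Mt4, had 0 reads in both libraries. The limit that a count of 0 allows was taken as 3 reads, a one-sided limit, or 0.177 RPM in MHs and 0.0708 RPM in SHs.

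**Figure D1:**
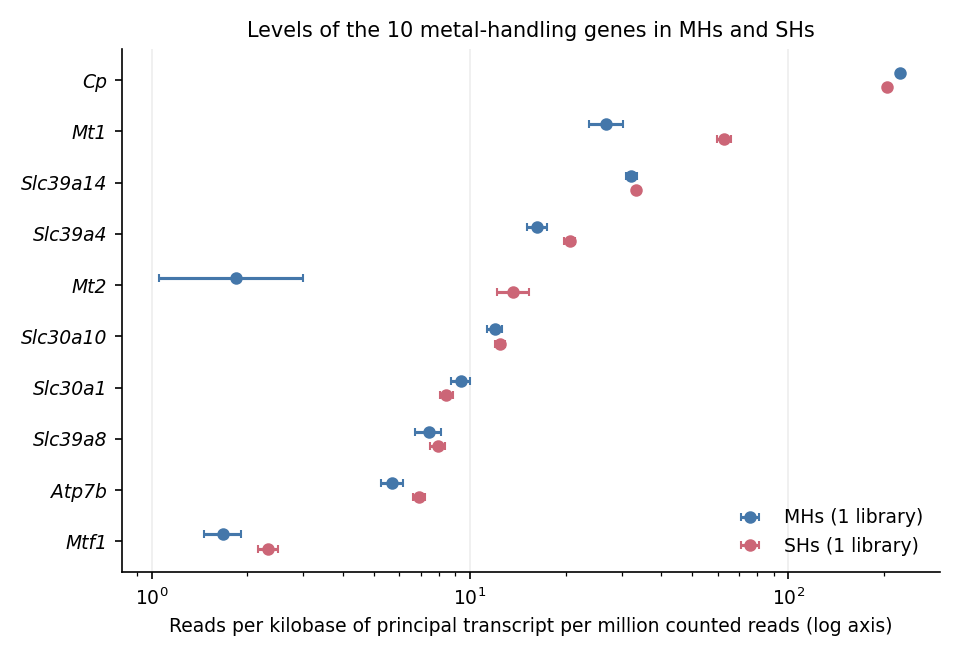
Level of each of the 10 genes in the library of MHs (blue) and of SHs (red), as RPKM on a log axis, with exact 95% Poisson intervals for counting error only. Mt2 moved from 1.84 to 13.7 RPKM and Mt1 from 26.8 to 62.9 RPKM, while Cp was the highest gene in both libraries.

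Mt2 and Mt1 lie side by side on chromosome 8 of mm10, both on the forward strand. Mt2 (ENSMUSG00000031762.7) spans chr8:94172664-94173568 and Mt1 (ENSMUSG00000031765.8) spans chr8:94179082-94180327, with 5513 bases and 0 annotated genes between them. No run of 30 bases is shared by their main transcripts, and the longest shared run is 20 bases. Of the 482 runs of 30 bases in the main Mt2 transcript, 274 also occur in transcripts of other genes, nearly all in the antisense gene Gm45774, which is not among the counted symbols. None of the 520 runs of Mt1 occur in another gene. Whether reads of Gm45774 entered the count of Mt2 was not tested, and whether the counting used strand is not given in the sources used here.

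The DNA just upstream of a metallothionein gene is where MTF-1 is known to act, and the stretches before Mt1, Mt2 and its other well-known target Slc30a1 are therefore shown, from the RefSeq table of GRCm38.p6 (the primary assembly of mm10). All are 5′ to 3′ on the forward strand and end before the annotated start of the gene. For Mt1 and Mt2, a TATAAA box and further matches lie past that start and are given further below. Capitals mark matches on either strand to TGCACNC or TGCGCNC, the core of the metal response element. They are chr8:94178839-94179081 for Mt1, chr8:94172368-94172617 for Mt2 and chr1:191906531-191906766 for Slc30a1.
Mt1: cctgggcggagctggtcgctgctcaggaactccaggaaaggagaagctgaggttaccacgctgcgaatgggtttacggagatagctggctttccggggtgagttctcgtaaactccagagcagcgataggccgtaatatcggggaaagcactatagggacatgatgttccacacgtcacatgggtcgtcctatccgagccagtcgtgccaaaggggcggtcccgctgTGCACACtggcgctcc
Mt2: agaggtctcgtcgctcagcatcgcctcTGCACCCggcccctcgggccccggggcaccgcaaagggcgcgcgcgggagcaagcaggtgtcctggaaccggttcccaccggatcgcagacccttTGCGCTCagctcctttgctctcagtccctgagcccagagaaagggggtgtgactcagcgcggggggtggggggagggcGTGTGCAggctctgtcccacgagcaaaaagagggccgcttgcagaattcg
Slc30a1: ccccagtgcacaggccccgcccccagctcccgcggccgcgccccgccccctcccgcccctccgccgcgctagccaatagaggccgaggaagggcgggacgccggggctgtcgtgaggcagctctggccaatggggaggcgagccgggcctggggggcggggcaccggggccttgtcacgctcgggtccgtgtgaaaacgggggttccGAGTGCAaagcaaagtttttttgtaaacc

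Counted over the whole RefSeq window, from 250 bases before to 50 bases after the start, the core occurred 3 times at Mt1, 4 times at Mt2 and 2 times at Slc30a1. Among the 32851 windows of all genes, 25.7% held at least 1 match, 7.11% at least 2, 1.97% at least 3 and 0.517% at least 4. Slc30a10 held 3 matches, of which a pair overlapped on opposite strands, Atp7b held 1, and Slc39a8 held 1 in the window of 1 of its 2 starts. Mtf1 and Cp held 0. Windows were found for 8 of the 10 genes, all but Slc39a14 and Slc39a4. A match is a description of letters and not a site shown to be bound, and a window without a match says only that these letters are not in it.

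**Figure D2:**
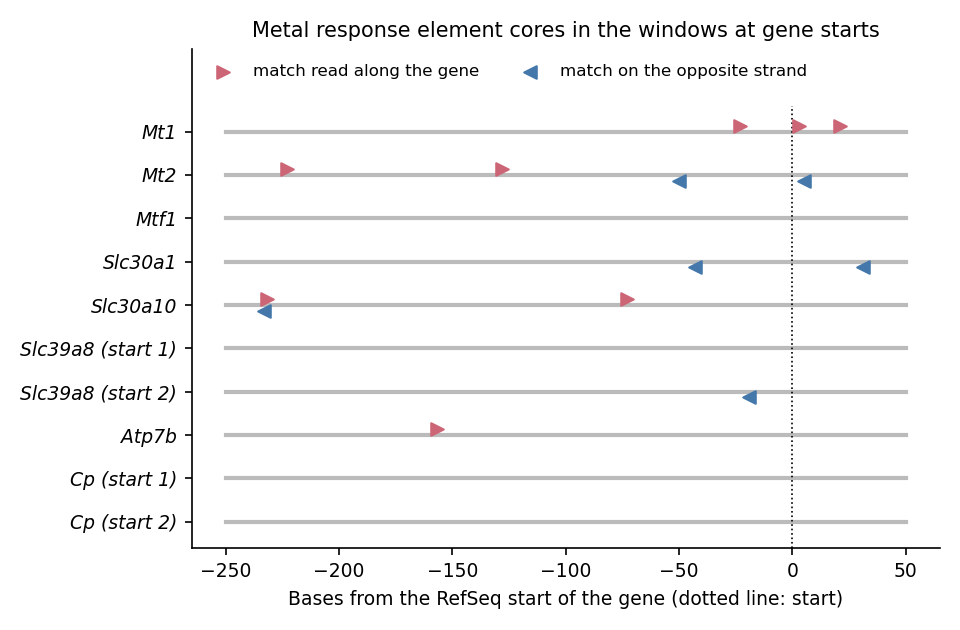
Positions of the core letters of the metal response element (horizontal axis, bases from the RefSeq start) in each window from 250 bases before to 50 after the start, 1 grey line per window. Red triangles are matches read along the gene and blue triangles matches on the opposite strand, with 4 at Mt2, 3 at Mt1 and at Slc30a10 and 2 at Slc30a1.

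Matches also stood at the beginning of the annotated metallothionein transcripts, ahead of a TATAAA box that lies inside the first exon as annotated. In the main Mt1 transcript the box begins at base 129 and 4 matches precede it, and in the main Mt2 transcript it begins at base 90 and 3 matches precede it. Of the 58695 protein-coding transcripts, 0.0545% held at least 4 matches in their first 150 bases, 0.388% held at least 3, and 1.82% held TATAAA there. Where transcription begins in these cells was not examined, so the windows above are placed by the annotated starts alone. Mt1 sites a and b are the same matches as those counted after the start in the Mt1 window, whereas the other sites lie beyond the windows. The sites are shown with 8 bases on each side and the core in capitals, as the transcripts of GENCODE M21 give them. The Mt1 sites end 112, 94, 30 and 16 bases before the box.
Mt1 site a: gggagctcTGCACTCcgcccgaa
Mt1 site b: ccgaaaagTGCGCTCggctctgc
Mt1 site c: cgcctgctGGGTGCAaacccttt
Mt1 site d: aaacccttTGCGCCCggactcgt
The Mt2 sites end 70, 51 and 17 bases before it.
Mt2 site a: aaaagggcGTGTGCAggcggcgg
Mt2 site b: gcgggggcGCGTGCAtggtgcct
Mt2 site c: ggagctttTGCGCTCgacccaat
In both genes the last site before the box, Mt1 site d and Mt2 site c, reads along the gene and matches TGCGCNC.

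The regulator Mtf1 itself was modestly higher in the SH library. Mtf1 (ENSMUSG00000028890.13, chr4:124802104-124849800, forward strand) had 217 reads in MHs against 752 in SHs, or 12.8 RPM (11.1 to 14.6) and 17.8 RPM (16.5 to 19.1). The ratio was 1.39-fold (1.19 to 1.62), and the intervals of the groups did not overlap. Its exons overlap those of 1110065P20Rik on the opposite strand, which had 139 reads in MHs against 420 in SHs.

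Slc30a1, the zinc exporter of the plasma membrane (ZnT1), went slightly the other way. Slc30a1 (ENSMUSG00000037434.7, chr1:191906767-191913247, forward strand) had 833 reads in MHs against 1873 in SHs, or 49.1 RPM (45.8 to 52.5) and 44.2 RPM (42.2 to 46.3). The intervals of the groups overlapped, and the ratio was 0.901-fold (0.830 to 0.979). With a total that leaves out the 10 most-read genes, its log2 ratio was -0.12 and the interval included 0. Its antisense neighbour 1700034H15Rik had 3 reads in MHs against 5 in SHs.

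Of the 8 listed genes made up of Mtf1 and its known targets, 3 had an interval above 0 (Mtf1, Mt1 and Mt2) and 3 an interval below 0 (Slc30a1, Ndrg1 and Csrp1). For comparison, 16.8% of the 15521 genes with at least 10 reads had an interval above 0 and 15.5% one below 0. Mtf1, Mt1, Mt2 and Slc30a1 were themselves selected on this contrast, so nothing is read from these counts. Csrp1, which encodes a LIM-domain protein, had 42 reads in MHs against 39 in SHs, a log2 ratio of -1.42 (-2.09 to -0.76). Ndrg1, a gene induced by stress and hypoxia, had 116 and 110 reads, a log2 ratio of -1.40 (-1.79 to -1.01). The zinc importer Slc39a10 and the selenoprotein gene Selenow (Sepw1 in the files) had intervals that include 0, with log2 ratios of -0.10 and 0.05. The median of the 8 genes was -0.03.

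The manganese and zinc importers differed little. Slc39a14 (ZIP14) brings manganese, zinc and iron into hepatocytes. It had the most reads of the transporters in the set, with 2690 in MHs against 6963 in SHs. These are 158 RPM (152 to 165) and 164 RPM (161 to 168), a ratio of 1.04-fold (0.992 to 1.09). Slc39a8 (ZIP8), which takes up manganese and zinc and is known for recovering manganese from bile, had 445 and 1185 reads, or 26.2 RPM (23.8 to 28.8) and 27.98 RPM (26.4 to 29.6), a ratio of 1.07-fold (0.956 to 1.19). For both genes the intervals of MHs and SHs overlapped and the interval of the ratio included 1. With a total that leaves out the 10 most-read genes, the log2 ratio of Slc39a14 was 0.08 (0.02 to 0.15), which leaves out 0. Slc39a14 (ENSMUSG00000022094.15) lies at chr14:70303469-70351425 on the reverse strand and Slc39a8 (ENSMUSG00000053897.15) at chr3:135825279-135888572 on the forward strand.

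Slc39a4 (ZIP4), best known for zinc uptake in the intestine, was the importer with the largest ratio of the 3. It had 758 reads in MHs against 2399 in SHs, or 44.6 RPM (41.5 to 47.9) and 56.6 RPM (54.4 to 59.0). The intervals lay apart, and the ratio was 1.27-fold (1.17 to 1.38). Slc39a4 (ENSMUSG00000063354.7) lies at chr15:76612383-76617384 on the reverse strand.

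Slc30a10, which exports manganese into bile, differed little. It had 1185 reads in MHs against 3077 in SHs, or 69.8 RPM (65.9 to 73.9) and 72.6 RPM (70.1 to 75.3), with overlapping intervals and a ratio of 1.04-fold (0.973 to 1.11). The route of manganese through the hepatocyte has Slc39a14 and Slc39a8 for entry and Slc30a10 for exit. Scaled by the library total, each of these 3 genes had an interval that includes 1. The highest upper limit was 1.19-fold, or 0.25 on the log2 scale, for Slc39a8, and covers counting error only. It was 0.29 with the 10 most-read genes left out of the total, and 0.29 with the SH library thinned. With the SH library thinned to the depth of MHs, the interval of Slc30a10 left out 0, at a log2 ratio of 0.12 (0.003 to 0.23). Slc30a10 (ENSMUSG00000026614.6, chr1:185454848-185468762, forward strand) overlaps Gm2061 on the opposite strand, which had 42 reads in MHs against 64 in SHs.

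For copper, the pump and the carrier differed in opposite directions, both by little. Atp7b, the ATPase that loads copper onto ceruloplasmin and moves it into bile, had 631 reads in MHs against 1911 in SHs, or 37.2 RPM (34.3 to 40.2) and 45.1 RPM (43.1 to 47.2). Its intervals lay apart, and the ratio was 1.21-fold (1.11 to 1.33). Cp, ceruloplasmin, the copper-carrying ferroxidase of plasma, had 15412 and 34887 reads, or 908 RPM (893 to 922) and 824 RPM (815 to 832). Its intervals also lay apart, at a ratio of 0.907-fold (0.890 to 0.925), which its depth resolves even though the difference is small. Atp7b (ENSMUSG00000006567.11) lies at chr8:21992785-22060305 on the reverse strand. Cp (ENSMUSG00000003617.16, chr3:19957054-20009145, forward strand) shares exonic bases with Hps3 on the opposite strand, which had 99 reads in MHs against 199 in SHs.

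**Figure D3:**
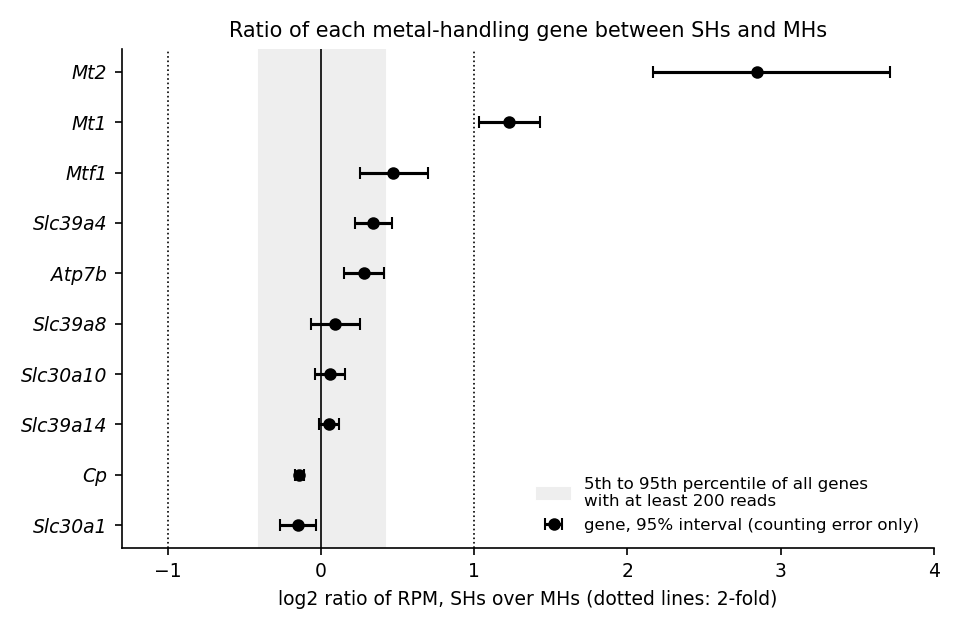
Log2 ratio of RPM in SHs over MHs for each gene, with its 95% Clopper-Pearson interval for counting error only. The grey band spans the 5th to 95th percentile of all genes with at least 200 reads (-0.40 to 0.42), and the dotted lines mark 2-fold, which Mt1 and Mt2 passed.

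Over the 10 genes, all with at least 10 reads, 5 had an interval above 0 (Mt1, Mt2, Mtf1, Slc39a4 and Atp7b), 2 an interval below 0 (Slc30a1 and Cp) and 3 an interval that includes 0 (Slc30a10, Slc39a14 and Slc39a8). At least 2-fold higher in SHs were 2 of the 10, against 2.00% of all 15521 genes with at least 10 reads, and at least 2-fold lower were 0 of the 10, against 4.46%. These counts come from the contrast on which the genes were selected, so nothing is read from them. The median log2 ratio was 0.19 over the 10 genes and 0.02 over all genes. Without Mt1 and Mt2, the other 8 genes ranged from -0.15 to 0.47 with a median of 0.08.

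Set against the 9608 genes with at least 200 reads, whose 5th and 95th percentiles were -0.40 and 0.42, Mt1, Mt2 and Mtf1 lay above the band and the other 7 genes within it. A higher log2 ratio than that of Mt2 was found for 2 of these genes, and than that of Mt1 for 23. For Mtf1 it was 323, for Slc39a4 750 and for Atp7b 1164. The remaining genes lay further in, from 3691 genes above Slc39a8 to 7612 above Slc30a1. Mt1 was 2.34-fold higher in SHs at a summed depth of 1712 reads, whereas Mt2 had 312 reads in all, 296 of them in SHs. Mt2 thus reached 200 reads only through SHs, and its log2 interval was wide (2.17 to 3.72). Places and ranks use the contrast on which the genes were selected, so nothing is read from them.

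**Figure D4:**
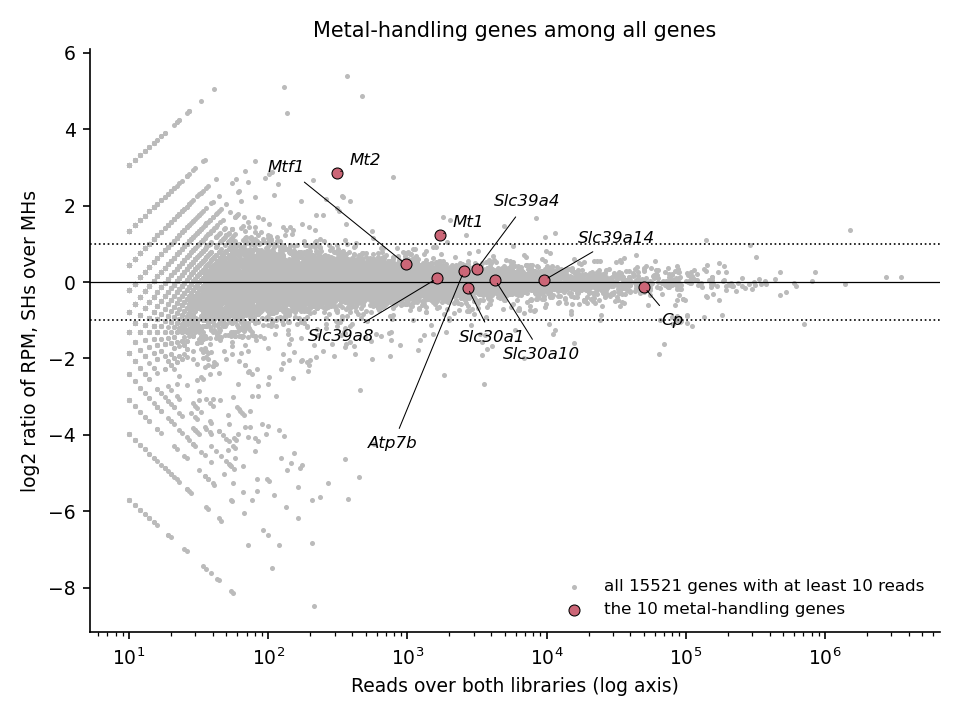
Log2 ratio of RPM in SHs over MHs (vertical axis) against reads over both libraries (log axis) for all 15521 genes with at least 10 reads (grey), with the 10 metal-handling genes in red. Mt2 and Mt1 stand above the dotted line of 2-fold, and the other 8 genes lie between the dotted lines.

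By the length of the principal transcript, the order of levels differed between the libraries in the places of Mt1 and Mt2. In MHs the order by RPKM was Cp at 225, Slc39a14 at 32.2, Mt1 at 26.8, Slc39a4 at 16.2, Slc30a10 at 11.96, Slc30a1 at 9.36, Slc39a8 at 7.42, Atp7b at 5.71, Mt2 at 1.84 and Mtf1 at 1.67. Only the neighbours Mt2 and Mtf1 had overlapping intervals there. In SHs the order was Cp at 204, Mt1 at 62.9, Slc39a14 at 33.4, Slc39a4 at 20.6, Mt2 at 13.7, Slc30a10 at 12.4, Slc30a1 at 8.43, Slc39a8 at 7.92, Atp7b at 6.94 and Mtf1 at 2.33. Here Mt2 overlapped with Slc30a10, and Slc30a1 with Slc39a8. Mt1 thus passed Slc39a14, and Mt2 went from below Atp7b to above Slc30a1. The order depends on the length used. With all annotated exons as length, a choice made after seeing the data, Mt1 stood at 11.8 RPKM in MHs, below Slc39a14 at 15.02, Slc39a4 at 14.4 and Slc30a10 at 11.96. In SHs it stood at 27.7 RPKM, again next to Cp, with Slc39a4 at 18.2 above Slc39a14 at 15.6 and Mt2 at 11.9 below Slc30a10 at 12.4. Slc39a8, at 3.42 and 3.65 RPKM, then lay below Atp7b in both libraries. All 10 genes together gave 1321 RPM in MHs and 1294 RPM in SHs, of which Cp made up the greater part.

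The genes whose ratio lay closest to that of Mt1 were Gm14236, Gm24105 and Aldh1b1, with differences of 0.0089, 0.060 and 0.064 on the log2 scale over 2 libraries. Aldh1b1, a mitochondrial aldehyde dehydrogenase, had 1606 reads in MHs against 9806 in SHs. Closest to Mt2 by the same minimum were Gm26702, the somatostatin receptor gene Sstr2 and the adrenergic receptor gene Adra2c. Their differences were 0.11, 0.18 and 0.60. Sstr2 had 12 reads in MHs against 198 in SHs, Adra2c had 26 and 314, and Gm26702 had 44 and 739. Like Mt2, these genes passed the minimum of 200 reads mainly through their reads in SHs. The likeness rests on 2 libraries and on that minimum. Below it, 0610038B21Rik lay nearer to Mt2, at a log2 ratio of 2.81 on 5 and 96 reads. Few genes with at least 200 reads had a ratio as high as that of Mt2.

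In the wider families, no zinc exporter or importer with at least 10 reads was counted as 2-fold higher or lower. For the shallow genes Slc30a3, Slc39a2, Slc39a5 and Slc39a6 the intervals still hold a 2-fold difference. Both families, and the copper and manganese lists below, hold some of the 10 selected genes, so nothing is read from their counts. Of the 10 Slc30 genes, 8 had at least 10 reads, of which 0 had an interval above 0, 3 one below 0 (Slc30a1, Slc30a6 and Slc30a7) and 5 one that includes 0, against 16.8% above and 15.5% below over all genes tested. Slc30a7, a zinc transporter of the Golgi, had the lowest ratio, with 393 reads in MHs against 771 in SHs and a log2 ratio of -0.35 (-0.52 to -0.17). Slc30a3, the transporter of synaptic vesicles, had the highest, 0.35, on 10 and 33 reads, with an interval from -0.65 to 1.59. The family summed to 247 RPM in MHs and 238 RPM in SHs, and its median log2 ratio was -0.08.

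Of the 14 Slc39 genes, 13 had at least 10 reads, of which 2 had an interval above 0 (Slc39a1 and Slc39a4), 0 one below 0 and 11 one that includes 0. The number above 0 is near the 16.8% of all genes. Slc39a1, a zinc importer of the plasma membrane, had 854 reads in MHs against 2308 in SHs, and its interval on the log2 scale (0.00 to 0.23) barely left out 0. Slc39a6 had the lowest ratio, -0.67 on 24 and 38 reads, and Slc39a5 the highest, 0.71 on 5 and 22 reads. Both intervals included 0, and Slc39a12 had 0 reads in both libraries. The family summed to 376 RPM in MHs and 404 RPM in SHs, with a median of 0.05.

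Among the 18 copper genes, 17 had at least 10 reads, of which 3 had an interval above 0 (Atp7b, Ccs and Steap2), 5 one below 0 (Slc31a1, Cox17, Sod3, Cp and Steap4) and 9 one that includes 0. The number above 0 is near the 16.8% of all genes, while 15.5% of all genes lay below 0. Under TMM and under DESeq2 size factors the copper genes were 2 above and 6 below, with Ccs, the copper chaperone of superoxide dismutase, no longer above 0. Steap2, a metalloreductase, had the highest ratio, with 91 reads in MHs against 350 in SHs and a log2 ratio of 0.62 (0.29 to 0.97). Slc31a1, the copper importer CTR1, had 2058 and 4554 reads, a log2 ratio of -0.17 (-0.25 to -0.10). Sod3, the secreted superoxide dismutase, had the lowest, with 21 reads in MHs against 1 in SHs and a log2 ratio of -5.16 (-11.08 to -3.07). It was the sole copper gene past 2-fold. Endothelial, macrophage and stellate cell markers were lower in SHs in the same way, and their part in this result was not tested. The copper genes summed to 1729 RPM in MHs and 1636 RPM in SHs, with a median of -0.08.

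All 9 genes of manganese transport and use had at least 10 reads, of which 3 had an interval above 0 (Sod2, Arg1 and Pc, named Pcx in the files), 0 one below 0 and 6 one that includes 0, against the same 16.8% and 15.5%. Arg1, the manganese enzyme that ends the urea cycle, had the most reads and the highest ratio, with 21974 reads in MHs against 65679 in SHs and a log2 ratio of 0.26 (0.24 to 0.28). Sod2, the manganese superoxide dismutase of mitochondria, had 2320 and 6847 reads, a log2 ratio of 0.24 (0.17 to 0.31). Tmem165, a manganese transporter of the Golgi, had the lowest, -0.24 (-0.66 to 0.20). The median was 0.06.

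**Figure D5:**
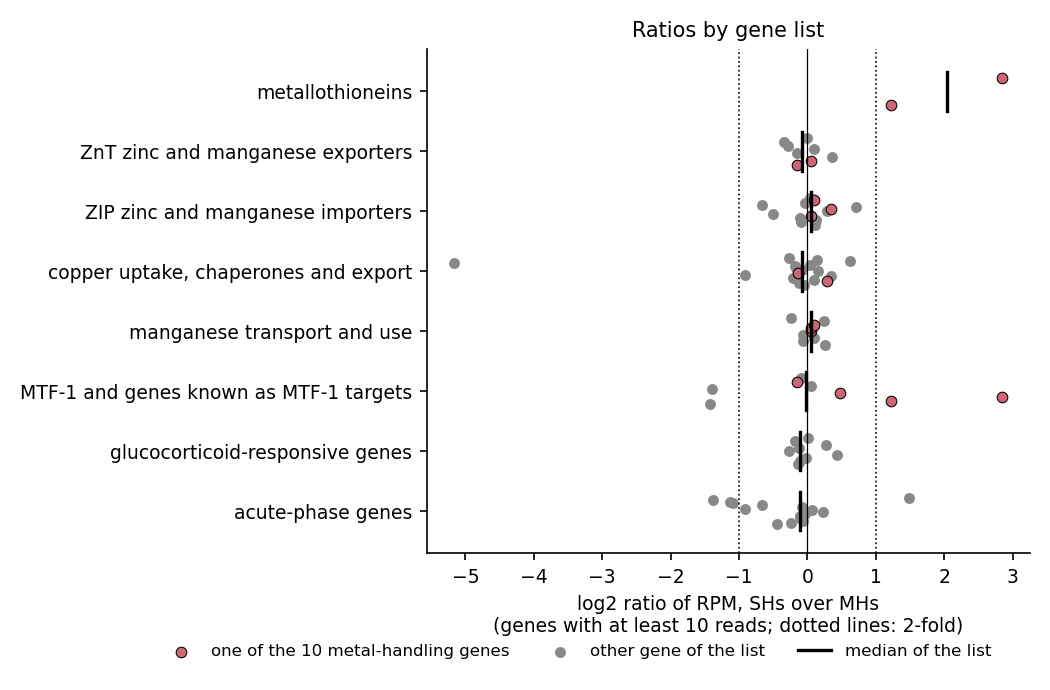
Log2 ratio of RPM in SHs over MHs for every gene with at least 10 reads in 8 lists, 1 row per list, with the 10 metal-handling genes in red, other genes in grey and a black bar at the list's median. The metallothionein row holds only Mt1 and Mt2, both selected on this contrast, and both lie above 1. Sod3 stands alone at -5.16 in the copper row, and Csrp1 and Ndrg1 lie below -1 in the row of MTF-1 targets.

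Metallothionein genes also answer to glucocorticoids and to inflammation, and genes listed for each were compared as well. Of 9 glucocorticoid-responsive genes, 2 had an interval above 0, 3 one below 0 and 4 one that includes 0, with a median of -0.12. Over all genes with at least 10 reads, 16.8% had an interval above 0 and 15.5% one below 0. Pck1, a rate-limiting enzyme of gluconeogenesis, was highest at 0.43 (0.41 to 0.44) and the clock gene Per1 lowest at -0.28 (-0.46 to -0.09). Of 16 acute-phase genes, 3 had an interval above 0 (Itih4, Il6ra and Socs3) and 13 one below 0, against the same 16.8% and 15.5%. The serum amyloid genes stood lowest, with log2 ratios of -1.09 for Saa1, -1.13 for Saa2 and -1.39 for Saa3. Fga, a fibrinogen chain and the gene with the most reads, was at -0.07. Socs3, a feedback inhibitor of cytokine signalling, was the only one at least 2-fold higher in SHs. It had 617 reads in MHs against 4292 in SHs and a log2 ratio of 1.48 (1.357 to 1.604).

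Markers of the zones of the liver lobule also differed between the libraries. All 11 periportal markers had an interval above 0, with log2 ratios from 0.02 for Cps1 to 1.29 for Aldh1b1 and a median of 0.43. Among all genes with at least 10 reads, 16.8% had an interval above 0 and 15.5% one below 0. All 11 pericentral markers had an interval below 0, from -4.23 for Slc1a2 to -1.08 for Axin2 with a median of -1.89, and they summed to 2930 RPM in MHs and 778 RPM in SHs. Among the periportal markers, Aldh1b1 alone had a ratio as high as that of Mt1. Whether zonation has a part in the values of Mt1, Mt2 or the transporters was not tested, since each group has 1 library.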

How the data were processed

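Read counts per gene symbol of 1 library of MHs and 1 of SHs were used as the authors deposited them, without normalization. Per the methods, trimmed reads were aligned to mm10 in CLC Genomics Workbench and expressed as RPKM. The program, annotation and strand setting behind the deposited counts are not given in the sources used here. Counts were divided by the library's counted reads (16979136 in MHs, 42356444 in SHs), so 3 reads equal 0.177 and 0.0708 RPM. Log2 ratios used 0.5 added reads and 95% Clopper-Pearson intervals, and levels exact Poisson intervals (Python 3.11.15, numpy 2.4.6, pandas 2.3.3, scipy 1.17.1, figures with matplotlib 3.10.9). A gene was counted as 2-fold higher or lower where the ratio reached 2-fold and its interval left out 0, among genes whose reads in MHs and SHs summed to 10 or more. Nothing was tested between groups. The scripts were tested on simulated data.

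The genes and gene lists were chosen with earlier results of these data known. Named were the 10 genes, from each list the gene with the most reads and those with the lowest and highest ratio, the 3 genes nearest to Mt1 and to Mt2 by log2 ratio among genes with at least 200 reads, the genes of the sorting markers, and overlapping genes. Other list genes with an interval away from 0 were named after their values were seen. Of 147 list genes, all 147 were found, 4 under another symbol. Positions and lengths came from GENCODE M21, in which 39469 of the 43280 symbols were found, and windows from RefSeq. Alternatives were TMM (edgeR 4.0.16, R 4.3.3), size factors (DESeq2 1.42.0), a total that leaves out the 10 most-read genes, a prior of 2 reads, other minimums and folds, thinning, and, added after seeing the data, another gene length. A planned comparison of protein sequences was not analysed here. Of the cholangiocyte markers, 2 are not reported here, and both were left out of their sum.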

Additional observations from a re-analysis of the deposited data

How the results depend on the processing

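No paired analysis was possible because each group has 1 library. The scalings moved all log2 ratios together by -0.023 (TMM), -0.022 (DESeq2 size factors) and 0.032 (total leaving out the 10 most-read genes). Under them Mt1 ranged from 1.20 to 1.26, Mt2 from 2.83 to 2.88 and Mtf1 from 0.45 to 0.50, and the interval of Slc30a1 included 0 in 1 of the 3 and that of Slc39a14 left out 0 in 1. Zinc importers with an interval above 0 numbered 1 under TMM and 1 under size factors, in place of 2. With the total leaving out the 10 most-read genes, Cp stood at -0.11 in place of -0.14 and 5 copper genes in place of 3 had an interval above 0. With no minimum of reads the median of the metallothioneins turned to -0.046, because Mt3 and Mt4, with 0 reads, entered it. With at least 100 reads, 3 copper genes in place of 5 had an interval below 0. At 4-fold, 1 of the 10 genes in place of 2 was higher, namely Mt2. With the SH library thinned to the reads of MHs, Mt1 was at 1.14, Mt2 at 2.96 and Slc30a10 at 0.12 with an interval above 0, and Mt2 held 18.8% of their reads in SHs in place of 16.8%. With all annotated exons as length, chosen after seeing the data, 13 of 20 levels moved, Mt1 to 11.8 RPKM in MHs and 27.7 in SHs and Cp to 94.9 and 86.1, and the order of levels changed. Depth limits Mt2 most, with 16 reads in MHs.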
